A study of Arabidopsis thaliana with 27 samples.

Results

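The core genes of the circadian clock were followed across all root libraries of a study of indole-3-carbinol (I3C) in Arabidopsis thaliana. I3C forms when indole glucosinolates, defence compounds of the cabbage family, are broken down. The 10 genes, chosen by their gene identifiers and not by their values, were CCA1, LHY, PRR9, PRR7, PRR5, TOC1, ELF3, ELF4, LUX and GI, out of 34262 genes in the table. All 10 passed the filter on low counts that left 21180 genes to test. Roots came from 10-day-old seedlings of homozygous lines grown hydroponically in long days, 20 seedlings to a treatment. Col-0 was the wild type. ICT1-2, whose transgene was built in the submitters' own laboratory, and ICT1-8098, taken from a FOX overexpression library of full-length cDNAs, are labelled as overexpressing ribosomal protein S30 under the 35S promoter, and each is a single line. Each group carries the name of its line and its treatment. The groups Col_NT, ICT1-2_NT and ICT1-8098_NT were kept in DMSO, the solvent, for 2 h. Col_200, ICT1-2_200 and ICT1-8098_200 were kept in 200 µM I3C and Col_400 and ICT1-2_400 in 400 µM I3C for the same 2 h. For Col_w, the leaves of Col-0 seedlings were wounded 3 times each and roots were taken after 8 h. According to the labels, collection of all roots fell at one time, whose hour is not given. Groups had 3 libraries each, except ICT1-2_NT with 2, so 26 of the 27 libraries of the series were used.

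The plant clock is a loop of transcriptional repressors whose genes are expressed in turn through the day. CCA1 and LHY, related MYB-type proteins, are made around dawn and repress genes of the evening. The pseudo-response regulators PRR9, PRR7, PRR5 and TOC1 follow each other from morning to evening and repress CCA1 and LHY. ELF3, ELF4 and LUX form the evening complex, which represses PRR9, PRR7 and LUX itself at night, and GI, a large protein made in the afternoon, acts in the turnover of PRR5 and TOC1 proteins. The clock of roots is known to run somewhat differently from that of the shoot.

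Sequence just before the annotated start is shown for 6 of the genes. They are the morning pair CCA1 and LHY, whose counts parted with I3C in Col-0, and 4 more genes. Those 4 rose with I3C in both lines, as did CCA1. Each sequence is the 300 bases before the start on the strand of the gene, read from the RefSeq assembly TAIR10.1. Positions of all 10 genes in the deposited table were those of that assembly. Capitals mark matches, on either strand, to the G-box (CACGTG), the evening element (AAAATATCT), the CCA1-binding site (AAAAATCT), the LUX-binding site (GATACG or GATTCG), the heat shock element (GAANNTTC) and a TCP site (GGNCCCAC). The windows of CCA1 (chr2:19245291-19245590), LHY (chr1:37872-38171), PRR9 (chr2:19232307-19232606), PRR7 (chr5:642031-642330), PRR5 (chr5:8358547-8358846) and LUX (chr3:17182742-17183041) follow, those of CCA1, PRR9 and LUX from the plus strand and those of LHY, PRR7 and PRR5 from the minus strand.
CCA1: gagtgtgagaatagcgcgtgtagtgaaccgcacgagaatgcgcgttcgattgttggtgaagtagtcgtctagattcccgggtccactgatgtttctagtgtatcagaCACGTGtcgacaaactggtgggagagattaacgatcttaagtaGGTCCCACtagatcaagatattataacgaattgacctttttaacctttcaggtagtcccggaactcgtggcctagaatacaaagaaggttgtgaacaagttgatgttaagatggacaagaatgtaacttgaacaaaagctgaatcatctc
LHY: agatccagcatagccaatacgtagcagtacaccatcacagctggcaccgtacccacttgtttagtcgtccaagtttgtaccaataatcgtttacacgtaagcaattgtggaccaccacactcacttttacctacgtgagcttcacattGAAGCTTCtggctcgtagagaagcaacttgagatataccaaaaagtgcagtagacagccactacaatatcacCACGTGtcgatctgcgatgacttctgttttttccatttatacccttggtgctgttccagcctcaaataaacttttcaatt
PRR9: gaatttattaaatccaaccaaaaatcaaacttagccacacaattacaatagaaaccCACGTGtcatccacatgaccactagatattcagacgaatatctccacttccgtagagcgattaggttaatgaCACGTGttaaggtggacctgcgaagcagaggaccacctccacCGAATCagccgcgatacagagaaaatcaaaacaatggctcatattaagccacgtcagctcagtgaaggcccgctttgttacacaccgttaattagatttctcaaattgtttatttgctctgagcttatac
PRR7: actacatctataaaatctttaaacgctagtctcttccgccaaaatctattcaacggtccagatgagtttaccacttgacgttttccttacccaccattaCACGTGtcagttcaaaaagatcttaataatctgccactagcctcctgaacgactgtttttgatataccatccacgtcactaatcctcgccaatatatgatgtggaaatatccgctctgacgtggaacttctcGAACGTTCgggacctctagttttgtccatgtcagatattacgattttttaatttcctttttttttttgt
PRR5: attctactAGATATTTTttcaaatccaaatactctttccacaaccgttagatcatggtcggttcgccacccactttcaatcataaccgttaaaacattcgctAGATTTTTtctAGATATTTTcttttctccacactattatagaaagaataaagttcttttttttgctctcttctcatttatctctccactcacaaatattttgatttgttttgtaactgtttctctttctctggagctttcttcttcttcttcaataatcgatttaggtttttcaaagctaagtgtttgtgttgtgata
LUX: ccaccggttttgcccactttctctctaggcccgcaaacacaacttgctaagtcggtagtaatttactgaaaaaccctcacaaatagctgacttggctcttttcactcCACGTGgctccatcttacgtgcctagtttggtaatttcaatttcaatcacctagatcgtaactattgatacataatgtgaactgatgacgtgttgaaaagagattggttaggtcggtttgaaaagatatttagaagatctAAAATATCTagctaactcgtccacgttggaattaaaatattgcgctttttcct
A G-box stood in the windows of 5 of the 10 genes, CCA1, LHY, PRR9, PRR7 and LUX, and in 7.82% of 21031 windows of the same length before tested genes. The evening element stood in 3, PRR5, TOC1 and LUX, and in 2.82% of all windows. A LUX-binding site stood as GATACG in the windows of ELF3 and ELF4 (5.46% of all windows) and as GATTCG in that of PRR9 (9.80%). The heat shock element stood in LHY, PRR7 and ELF3 (11.4%), the CCA1-binding site in PRR5 (7.67%) and the TCP site in CCA1 (1.33%). The window of GI held none of these letters, and no match in the printed windows overlapped another. The matches are given only as features of the sequences, and whether they bear on the counts was not tested.

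Reads assigned to genes totalled 9503924 to 19433428 per library (median 14169035.5), and 3 reads, taken as the floor of detection, corresponded to 2.32 to 5.54 normalized counts. Levels are the authors' normalized counts, reads divided by a size factor per library. The labels do not say which of the S30 genes the lines carry, and the table holds 3 of them. The S30 gene AT2G19750 was at 2094 to 3481 normalized counts in Col_NT and at 4961 to 6598 in ICT1-8098_NT (log2 difference 1.13, adjusted p = 0.000649). It was at 2048 to 2811 in the libraries labelled ICT1-2_NT (-0.11, adjusted p = 0.796), and the S30 genes AT4G29390 (-0.30, adjusted p = 0.319) and AT5G56670 (-0.08, adjusted p = 0.833) did not pass there either. No S30 transcript was thus higher in the libraries labelled ICT1-2, for which ICT1-2 stands in the text. In ICT1-8098_NT, AT4G29390 and AT5G56670 did not pass (-0.42, adjusted p = 0.148 and -0.14, adjusted p = 0.697). The root marker SCR was present in every library. Of 10 shoot photosynthesis markers, LHCB2.1 was at 0 in 2 libraries and RBCS1B in 4. All others were above 0 in every library, and RBCS1A, with the highest mean, ran from 97.7 to 2285 normalized counts. The summed level of the list ran from 509 to 5566 normalized counts. In bulk roots, fewer cells of a type and less RNA per cell cannot be told apart.

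In untreated Col-0 roots the genes of the evening complex, TOC1, PRR7 and GI were well expressed and the dawn genes were nearly off. Per kilobase of exons, ELF4 led with a level of 1570 ± 342 normalized counts per kb (SD, n = 3), followed by TOC1 with 643 ± 111. PRR7 (341 ± 78.7), GI (331 ± 17.3) and ELF3 (322 ± 55.0) came next, and the ranges of neighbours in this order overlapped. PRR5 (195 ± 51.5) and LUX (176 ± 16.2) also overlapped, whereas PRR9 (17.8 ± 2.90) lay below both in every library. CCA1 (5.33 ± 0.152) and LHY (4.05 ± 1.43) were lowest, with overlapping ranges. With 200 µM I3C the range of ELF4, at 658 ± 63.4 per kb, overlapped that of TOC1 (595 ± 40.7), and CCA1, at 105 ± 37.4, had moved above PRR9 (44.8 ± 12.8).

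The first comparison asked what 2 h of I3C did to these genes in wild-type roots. CCA1 rose by far the most, from 14.5 to 287 normalized counts on average at 200 µM, PRR9 rose, and PRR7 and ELF4 fell. LHY, PRR5, TOC1, ELF3, LUX and GI did not pass the test at either dose. Thus 4 of the 10 genes passed at 200 µM, where 28.9% of all tested genes passed (15% higher and 13.9% lower), and 4 at 400 µM, where 35.8% did (18.4% higher and 17.4% lower). The median log2 fold change of the 10 genes was 0.17 at 200 µM and 0.25 at 400 µM, and that of all tested genes was -0.03 and -0.06. Both doses were compared with the same 3 Col_NT libraries. Tests are limma's moderated test with p-values adjusted by Benjamini and Hochberg over all tested genes, passed at an adjusted p under 0.05, and fold changes are on the scale of log2(normalized count + 1). Whether the libraries of a group came from separate cultures is not stated, and the p-values reflect only the spread among these samples, which could be technical. Beside these changes, the summed level of 7 root markers was 10975 to 15609 normalized counts in Col_NT, 3452 to 4100 in Col_200 and 2926 to 3572 in Col_400, with 1 and 2 of the 7 passing as lower. PHO1, a phosphate exporter of the vascular tissue, reached 12975 normalized counts and no other marker of the list more than 1411, so the sum is largely that of PHO1 where it is high. PHO1 had log2 changes of -2.90 and -3.34, and whether these markers bear on the results was not tested.

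CCA1 (AT2G46830, chromosome 2, 19245591 to 19248915, plus strand), the dawn repressor, stood at 14.8, 14.7 and 14.1 normalized counts in the 3 Col_NT libraries. It stood at 231, 404 and 225 in Col_200 and at 423, 457 and 480 in Col_400. Every treated library was thus more than 10 times above every control library. The log2 fold change was 4.16 (SE 0.36, adjusted p = 4.24e-09) at 200 µM and 4.87 (SE 0.36, adjusted p = 2.37e-10) at 400 µM. Its neighbours on the chromosome, CURT1B and AT2G46850, changed by -0.12 and -0.13 on the log2 scale at 200 µM. LHY (AT1G01060, chromosome 1, 33365 to 37871, minus strand), the partner of CCA1, was at 9.89, 12.4 and 19.3 in Col_NT, at 34.6, 20.3 and 31.4 in Col_200 and at 21.9, 55.7 and 5.74 in Col_400. The Col_200 libraries lay above Col_NT, but the difference did not pass (log2 fold change 1.02, 95% interval -0.19 to 2.22, adjusted p = 0.204), and the Col_400 libraries lay on both sides of the controls (0.52, -0.68 to 1.73, adjusted p = 0.517). The lowest LHY values were close to the floor, which limits what could be seen for this gene. The ratio of CCA1 to LHY counts in a library, which compares libraries and not the levels of the genes, had a median of 1.19 in Col_NT, 7.15 in Col_200 and 19.3 in Col_400. Every I3C library lay above every control library in this ratio.

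PRR9 (AT2G46790, chromosome 2, 19232607 to 19235179), the earliest of the pseudo-response regulators, was at 42.0, 30.9 and 41.3 normalized counts in Col_NT, 122, 97.8 and 67.7 in Col_200 and 177, 117 and 54.5 in Col_400. All I3C libraries lay above all controls, with a wide spread at 400 µM. The log2 fold change was 1.28 (SE 0.44, adjusted p = 0.0291) at 200 µM and 1.44 (SE 0.44, adjusted p = 0.012) at 400 µM. The first call was lost without Col_NT replicate 4 (adjusted p = 0.101) or 5 (0.0524) or without Col_200 replicate 1 (0.0887) or 4 (0.0783), and the second without Col_NT replicate 4 (0.0508) or Col_400 replicate 1 (0.0767) or with only both groups in the fit (0.0579). PRR7 (AT5G02810, chromosome 5, 637681 to 642030), which follows PRR9 in the morning, was at 1366, 859 and 1082 in Col_NT, 938, 565 and 534 in Col_200 and 828, 591 and 650 in Col_400. The 200 µM group overlapped the controls through its highest library, and the 400 µM group lay below them. PRR7 fell by 0.72 on the log2 scale at 200 µM (SE 0.23, adjusted p = 0.0202) and by 0.66 at 400 µM (SE 0.23, adjusted p = 0.027). Here too single libraries decided the call. At 200 µM it was lost without Col_NT replicate 3 (adjusted p = 0.114) or Col_200 replicate 4 (0.0976) or 5 (0.105), and at 400 µM without Col_NT replicate 3 (0.136) or 5 (0.0603) or Col_400 replicate 4 (0.107) or 5 (0.0778). With only the groups compared in the fit it missed the threshold at 200 µM (0.12) and at 400 µM (0.0546).

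PRR5 (AT5G24470, chromosome 5, 8356204 to 8358546), made around midday to afternoon, was at 425, 294 and 263 normalized counts in Col_NT, 478, 460 and 456 in Col_200 and 483, 240 and 455 in Col_400. The difference at 200 µM (log2 fold change 0.54, 95% interval 0.06 to 1.01, adjusted p = 0.0852) passed only without Col_NT replicate 3 (0.74, adjusted p = 0.028). TOC1 (AT5G61380, chromosome 5, 24674963 to 24678550), the evening member of the family, ran from 1547 to 2150 in Col_NT and from 1541 to 1953 over both I3C groups. The interval of its change was -0.35 to 0.14 at 200 µM and -0.28 to 0.21 at 400 µM, so a change of 0.5 on the log2 scale lay outside both. NEN2, a gene 4 bases beyond the end of TOC1, differed by 1.65 at 200 µM and 2.16 at 400 µM, and the library kit did not keep the strand.

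Of the evening complex, ELF4 (AT2G40080, chromosome 2, 16734294 to 16734953), a small protein that binds ELF3, fell in every I3C library. It was at 1186, 968 and 762 normalized counts in Col_NT, 452, 378 and 392 in Col_200 and 410, 337 and 351 in Col_400. The groups did not overlap, and the treated libraries were close to each other. ELF4 fell by 1.23 on the log2 scale at 200 µM (SE 0.16, adjusted p = 2.99e-06) and by 1.39 at 400 µM (SE 0.16, adjusted p = 4.36e-07). Its partner LUX (AT3G46640, chromosome 3, 17183042 to 17186959, named PCL1 in the table), the DNA-binding subunit, was at 748, 692 and 622 in Col_NT, 911, 832 and 781 in Col_200 and 936, 821 and 729 in Col_400. The Col_200 libraries all lay above the controls, but the change of 0.29 (95% interval -0.03 to 0.61) did not pass (adjusted p = 0.165). The ratio of ELF4 to LUX counts was 1.23 to 1.58 in Col_NT, 0.455 to 0.502 in Col_200 and 0.411 to 0.482 in Col_400. The groups with I3C lay below the controls without overlap. This ratio fell without overlap in the lines too. It was 1.40 to 1.83 in ICT1-2_NT, 0.677 to 0.872 in ICT1-2_200 and 0.576 to 0.726 in ICT1-2_400. In ICT1-8098 it was 1.44 to 1.91 without I3C and 0.627 to 1.32 with 200 µM. Col_w, at 0.857 to 0.945, also lay below Col_NT. ELF3 (AT2G25930, chromosome 2, 11058944 to 11063324), the scaffold of the complex, ran from 794 to 1060 in Col_NT and from 845 to 1179 with I3C (0.04, adjusted p = 0.884 and 0.33, adjusted p = 0.104). Without Col_NT replicate 3, the highest control, ELF3 passed at 400 µM (0.47, adjusted p = 0.0352). Genes that overlap ELF3 and LUX had few reads, with summed mean levels of 40.5 and 19.1 normalized counts. GI (AT1G22770, chromosome 1, 8061751 to 8067790) ran from 1350 to 1499 in Col_NT, from 991 to 1404 in Col_200 and from 954 to 1750 in Col_400 and did not pass (-0.24, adjusted p = 0.375 and -0.13, adjusted p = 0.634).

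Scaling by total reads in place of the authors' size factors moved the median of all tested genes to -0.33 at 200 µM and -0.34 at 400 µM. On that scale CCA1 still rose (3.85 and 4.59) and PRR7 (-1.03 and -0.95) and ELF4 (-1.55 and -1.67) still fell, TOC1 passed as lower (-0.41, adjusted p = 0.00551 and -0.32, adjusted p = 0.0225), GI passed as lower at 200 µM (-0.55, adjusted p = 0.0241) and PRR9 no longer passed at 200 µM (0.97, adjusted p = 0.0859). TOC1 thus lay within 0.1 of the median of all tested genes on that scale. Between the doses none of the 10 genes passed, where 0.123% of all tested genes did (0.0897% higher and 0.0331% lower by limma, with 2417 genes at an unadjusted p under 0.05). For CCA1, which differed most, the 400 µM libraries lay above the 200 µM libraries without overlap, with a log2 difference of 0.71 (95% interval -0.03 to 1.46, adjusted p = 0.461).

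**Figure D1:**
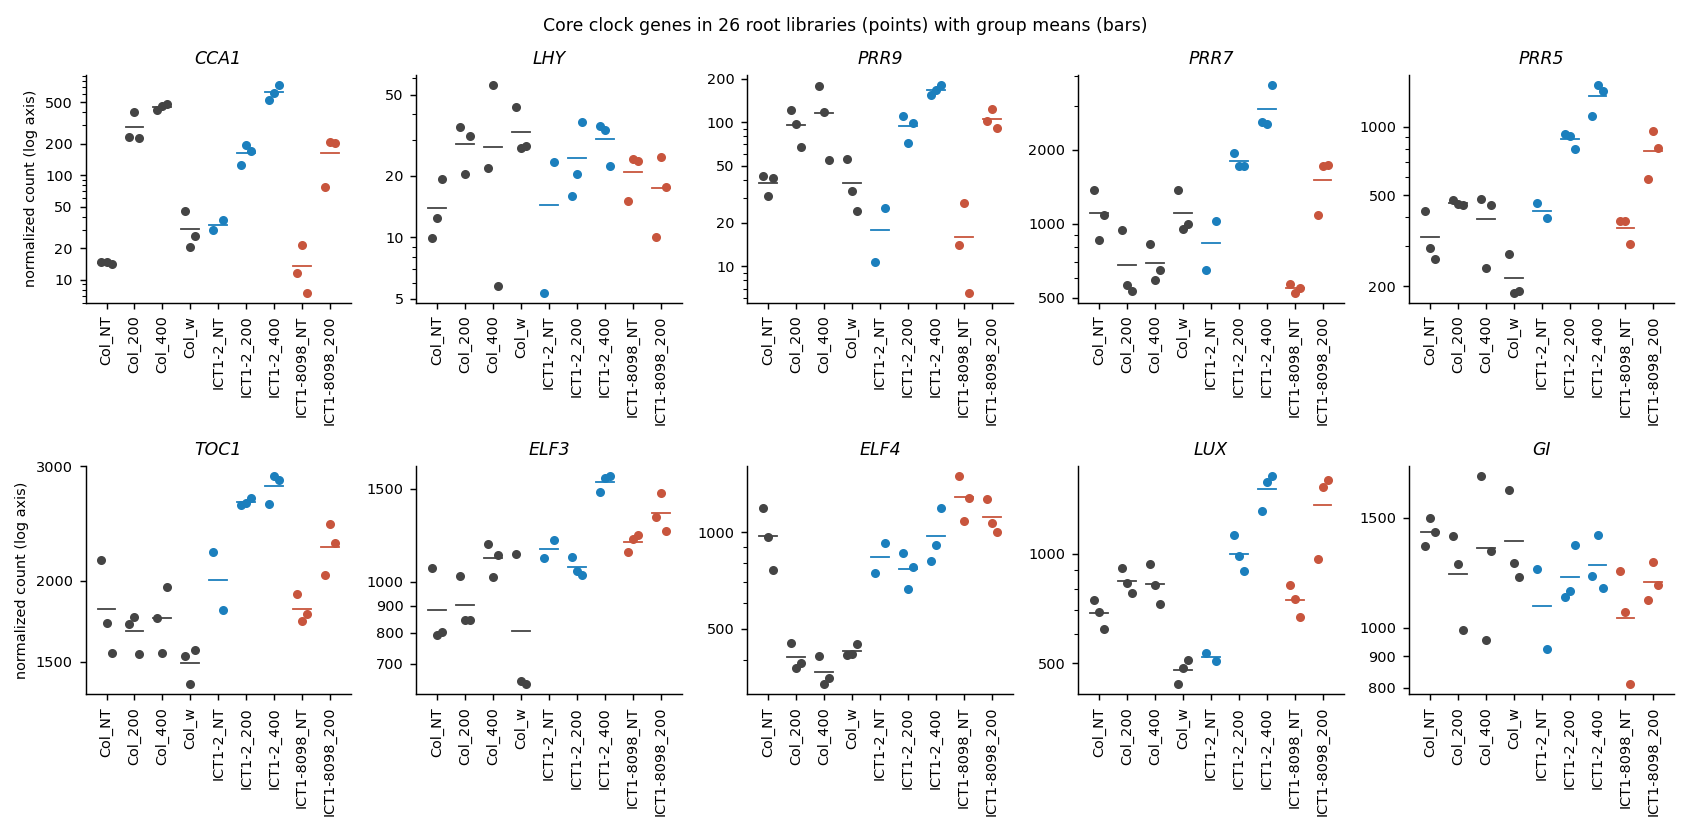
Normalized counts of each clock gene (log axis) in the 26 libraries by group, with points for libraries and bars for group means, Col-0 in dark grey, ICT1-2 in blue and ICT1-8098 in red. CCA1 rises with I3C in all 3 lines, PRR7 is lower with I3C in Col-0 and higher in the other lines, and ELF4 is low in the treated and wounded Col-0 groups.

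The next comparison set roots of leaf-wounded Col-0 seedlings against Col_NT. ELF4 alone passed, 1 of 10 where 2.47% of all tested genes passed (1.8% higher and 0.67% lower). ELF4 was at 415, 417 and 448 normalized counts in Col_w, below every Col_NT library and close to the values with I3C. It fell by 1.16 on the log2 scale (SE 0.16, adjusted p = 9.8e-05). LUX was at 439, 486 and 511, also below every control library, but its change of -0.52 (95% interval -0.84 to -0.20) did not pass here (adjusted p = 0.0803), although it did in the authors' deposited table (-0.52, adjusted p = 0.0449). CCA1 was at 45.2, 20.7 and 26.1 and LHY at 43.4, 27.3 and 28.0, and both stood above all controls. Their differences did not pass either (0.95, adjusted p = 0.234 and 1.21, adjusted p = 0.456). The ratio of CCA1 to LHY was 0.757 to 1.04, within the range of the controls. PRR5 was at 276, 187 and 189 and TOC1 at 1529, 1386 and 1563, both overlapping Col_NT, and neither passed (-0.58, 95% interval -1.05 to -0.11, adjusted p = 0.272 and -0.26, -0.51 to -0.02, adjusted p = 0.389). PRR9, PRR7, ELF3 and GI differed from Col_NT by -0.08, 0.01, -0.18 and -0.06. The summed root markers were 7986 to 8349 in Col_w, with none of the 7 passing by limma, and their part was not tested. Wounded roots were taken 8 h after the treatment and the others 2 h after theirs, so wounding and the longer incubation cannot be told apart. The treatments share the Col_NT libraries, and ELF4 in those 3 libraries ran from 762 to 1186.

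Without I3C, PRR9 and PRR7 were lower in ICT1-8098 than in Col-0, and no clock gene passed in the libraries labelled ICT1-2. In ICT1-8098_NT, 2 of the 10 genes passed where 12.2% of all tested genes did (6.01% higher and 6.17% lower). PRR7 was at 569, 525 and 548 normalized counts, below every Col_NT library (log2 difference -0.98, SE 0.23, adjusted p = 0.00498). PRR9 was at 14.2, 27.5 and 6.58, also below all controls (-1.38, SE 0.44, adjusted p = 0.0386). The call of PRR9 was lost without any of 5 of the 6 libraries, namely Col_NT replicate 3 (adjusted p = 0.0903), 4 (0.0633) or 5 (0.115) and ICT1-8098_NT replicate 1 (0.0879) or 5 (0.251). In the libraries labelled ICT1-2_NT none of the 10 passed by limma, where 18.2% of all tested genes did (9.5% higher and 8.66% lower, with 6583 genes at an unadjusted p under 0.05). CCA1 came closest, at 30 and 36.9 against 14.1 to 14.8 in Col_NT (1.14, 95% interval 0.31 to 1.98, adjusted p = 0.0513), and passed in the authors' deposited table (1.13, adjusted p = 0.0271). PRR9 was at 10.7 and 25.3 there and PRR7 at 648 and 1025, differences of -1.14 (adjusted p = 0.108) and -0.41 (adjusted p = 0.294). ELF3 lay above Col_NT without overlap in both lines, at 1111 and 1197 in ICT1-2_NT and 1139, 1206 and 1226 in ICT1-8098_NT, but did not pass (0.39, adjusted p = 0.126 and 0.44, adjusted p = 0.073). GI lay below Col_NT in both, at 1243 and 925 and at 1234, 1058 and 812, and did not pass either (-0.41, adjusted p = 0.189 and -0.48, adjusted p = 0.104). Both lines were compared with the same Col_NT libraries. Without Col_NT replicate 3, ELF3 passed as higher in both lines (0.53, adjusted p = 0.047 in ICT1-2_NT and 0.57, adjusted p = 0.0245 in ICT1-8098_NT) and ELF4 in ICT1-8098_NT (0.57, adjusted p = 0.0317). In ICT1-8098_NT, 5 of the 10 shoot photosynthesis markers were lower than in Col_NT and their sums ran from 922 to 1086, against 1245 to 3222 in Col_NT. Their part in these differences was not tested.

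In the libraries labelled ICT1-2, CCA1, PRR9, PRR7, PRR5, TOC1 and LUX rose with I3C at both doses, and none of the 10 genes fell. These were 6 of 10 genes at 200 µM, where 18.6% of tested genes passed (11.8% higher and 6.76% lower), and 6 at 400 µM, where 31.4% did (17.6% higher and 13.7% lower). The median log2 fold change of the 10 genes was 0.94 and 1.42, and that of all tested genes was -0.03 and -0.07. CCA1 went from 30 and 36.9 normalized counts to 126, 195 and 171 at 200 µM (2.24, SE 0.40, adjusted p = 0.000247) and to 531, 613 and 732 at 400 µM (4.18, SE 0.40, adjusted p = 2.26e-08). LHY again did not pass, at 5.36 and 23.3 without I3C, 15.9, 20.4 and 36.8 at 200 µM and 35.3, 33.6 and 22.5 at 400 µM, although it did at 400 µM without ICT1-2_NT replicate 2 (2.28, adjusted p = 0.0382). The ratio of CCA1 to LHY was 1.58 to 5.60 in ICT1-2_NT and 4.65 to 9.58 in ICT1-2_200, which overlapped. It was 15.0 to 32.6 in ICT1-2_400, above both. PRR9 stood at 111, 71.3 and 98.5 and then at 155, 167 and 181 (2.41, adjusted p = 0.000858 and 3.26, adjusted p = 1.46e-05).

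PRR7, which fell in Col-0, rose in ICT1-2 from 648 and 1025 normalized counts to 1944, 1722 and 1714 at 200 µM and 2596, 2550 and 3663 at 400 µM. The groups stood one above the other with no overlap. Against ICT1-2_NT the changes were 1.13 (SE 0.26, adjusted p = 0.00255) and 1.83 (SE 0.26, adjusted p = 6.6e-06). Between the doses PRR7 did not pass (0.69, adjusted p = 0.0647), although it did in the authors' deposited table (0.69, adjusted p = 0.0302). Without ICT1-2_NT replicate 1 the lower dose missed the threshold (0.80, adjusted p = 0.105). PRR5 rose from 462 and 396 to 930, 914 and 801 and to 1114, 1528 and 1444 (1.04, adjusted p = 0.00524 and 1.66, adjusted p = 2.41e-05), the first of which was lost without ICT1-2_NT replicate 2 (0.93, adjusted p = 0.0758). LUX rose from 534 and 506 to 1123, 984 and 895 and to 1309, 1576 and 1635 (0.94, adjusted p = 0.000304 and 1.53, adjusted p = 2.56e-07). TOC1 changed least of the genes that passed, from 1799 to 2213 without I3C to 2612 to 2683 and 2620 to 2896 (0.41, adjusted p = 0.0336 and 0.48, adjusted p = 0.00714). Its call was lost with total-read scaling (0.17 and 0.04) and without ICT1-2_NT replicate 2 (0.26, adjusted p = 0.373 and 0.33, adjusted p = 0.156), and at 200 µM also without ICT1-2_200 replicate 2 (0.068), 4 (0.0694) or 5 (0.0763). With only the groups compared in the fit, TOC1 at 200 µM missed the threshold as well (0.41, adjusted p = 0.0581). ELF4 did not pass, with 746 and 923 normalized counts without I3C, 862, 666 and 781 at 200 µM and 812, 909 and 1187 at 400 µM (-0.12, 95% interval -0.50 to 0.26 and 0.21, -0.17 to 0.59). The falls of ELF4 in Col-0 lie outside both intervals.

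Between the doses in ICT1-2, CCA1 (1.93, SE 0.36, adjusted p = 0.00182), LUX (0.59, SE 0.15, adjusted p = 0.019) and ELF3 (0.54, SE 0.16, adjusted p = 0.0352) were higher at 400 µM, 3 of 10 genes where 8.03% of all tested genes passed (5.22% higher and 2.8% lower). ELF3 went from 1028 to 1116 normalized counts at 200 µM to 1482 to 1584 at 400 µM. This was the only comparison in which it passed with all 26 libraries in the fit. Leaving out any of the 6 libraries ended the call of ELF3 (adjusted p from 0.0691 to 0.115). That of LUX was lost without ICT1-2_200 replicate 4 (0.0734) or 5 (0.082) or ICT1-2_400 replicate 4 (0.064) or 5 (0.0927). Total-read scaling ended both calls (ELF3 0.34, adjusted p = 0.226 and LUX 0.39, adjusted p = 0.0795). Against ICT1-2_NT, ELF3 at 400 µM lay higher without overlap but did not pass (0.42, adjusted p = 0.0711). It passed with only the groups compared in the fit (0.42, adjusted p = 0.0141), and other settings moved its change from -0.02 to 0.49. Beside the rises with I3C in ICT1-2, 7 of the 10 shoot photosynthesis markers were lower there with 200 µM and 5 with 400 µM. Their sums were 1695 to 1885 without I3C, 509 to 666 at 200 µM and 735 to 1028 at 400 µM, and their part in the results was not tested. The summed root markers were 7523 to 9228 in ICT1-2_NT, 4502 to 4850 in ICT1-2_200 and 3405 to 3763 in ICT1-2_400, with 2 of 7 lower at each dose, and their part was not tested either.

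ICT1-8098, treated only with 200 µM, gave a similar list, and 5 of the 10 genes passed, all higher, where 22.1% of all tested genes passed (14.2% higher and 7.97% lower). CCA1 went from 11.7, 21.5 and 7.52 normalized counts to 77.9, 210 and 202 (3.48, SE 0.36, adjusted p = 9.27e-08) and PRR9 to 101, 123 and 90.8 (2.83, SE 0.44, adjusted p = 2.63e-05). LHY was at 15.0, 24.1 and 23.5 before and 10.06, 24.7 and 17.7 after (-0.30, adjusted p = 0.795), and the ratio of CCA1 to LHY went from 0.320 to 0.893 to 7.75 to 11.4. PRR7 rose from 569, 525 and 548 to 1086, 1714 and 1723 (1.43, SE 0.23, adjusted p = 4.54e-05), with no overlap. PRR5 rose from 386, 385 and 307 to 590, 958 and 809 (1.11, adjusted p = 0.000803) and LUX from 819, 750 and 670 to 967, 1531 and 1598 (0.84, adjusted p = 0.00021). Replicate 2 of ICT1-8098_200 was the lowest of the 3 for CCA1, LHY, PRR7, PRR5, TOC1, LUX and GI and the highest for ELF4. No call was lost without it, and TOC1 then passed as well (0.39, adjusted p = 0.035), as it did in the authors' deposited table (0.32, adjusted p = 0.0377). ELF4 was at 1493, 1082 and 1280 before and 1272, 1071 and 1001 after, which did not pass (-0.20, 95% interval -0.54 to 0.14, adjusted p = 0.458). GI did not pass in either line at any dose. Of the shoot markers, 1 of 10 was lower, with sums of 525 to 583, and of the root markers 1 of 7, with sums of 4784 to 5504 against 9716 to 11011 in ICT1-8098_NT. The part of either list was not tested.

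**Figure D2:**
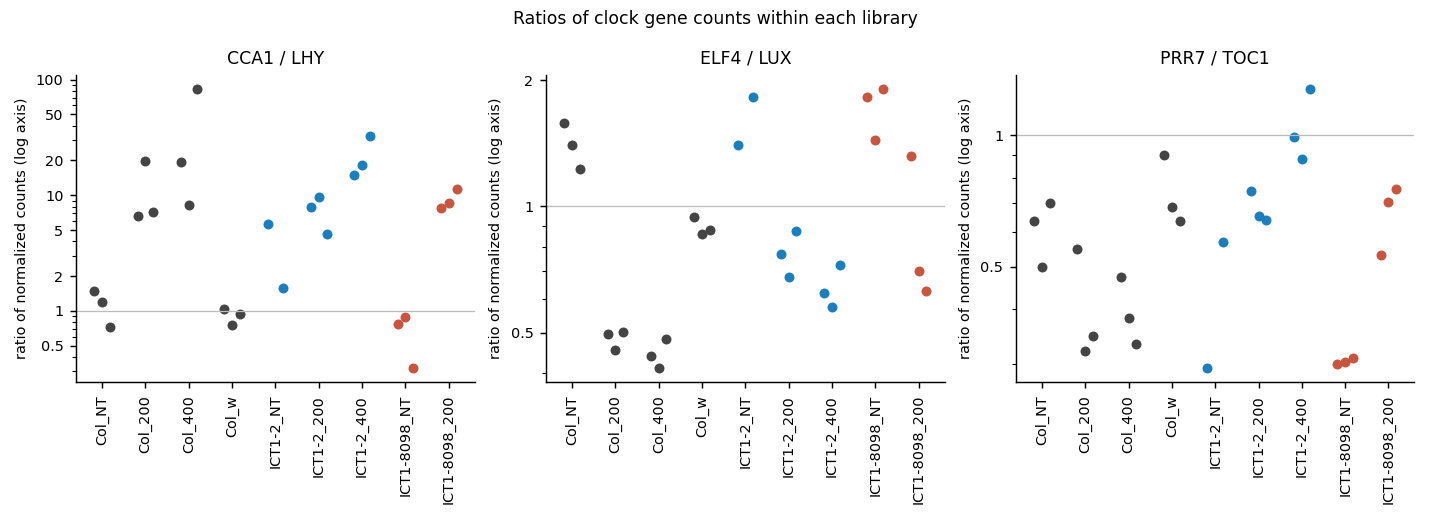
Ratio of normalized counts of CCA1 to LHY, ELF4 to LUX and PRR7 to TOC1 within each library (log axis), by group, with Col-0 in dark grey, ICT1-2 in blue and ICT1-8098 in red. CCA1 per LHY is at 4.65 or more in every I3C library, against 0.320 to 5.60 in the others. ELF4 per LUX is at 0.502 or less in all Col-0 libraries with I3C. In ICT1-2 and ICT1-8098 it is at 0.576 to 1.32 with I3C and at 1.40 to 1.91 without.

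The difference between the I3C response of a line and that of Col-0 at the same dose was tested as an interaction, and PRR7 passed in all 3 tests. The difference of log2 fold changes was 1.85 for ICT1-2 at 200 µM (SE 0.34, adjusted p = 0.012), 2.49 for ICT1-2 at 400 µM (SE 0.34, adjusted p = 0.000496) and 2.15 for ICT1-8098 at 200 µM (SE 0.32, adjusted p = 0.002). ELF4 passed for ICT1-2 at both doses (1.12, SE 0.25, adjusted p = 0.0346 and 1.59, SE 0.25, adjusted p = 0.00127) and missed the threshold for ICT1-8098 (1.03, SE 0.23, adjusted p = 0.0582), which it passed without Col_NT replicate 5 (0.0293) or Col_200 replicate 1 (0.0239). At 400 µM in ICT1-2, LUX (1.26, SE 0.23, adjusted p = 0.00438) and PRR5 (1.43, SE 0.34, adjusted p = 0.0284) passed too. In all, 2 of 10 genes passed for ICT1-2 at 200 µM, 4 at 400 µM and 1 for ICT1-8098, where 0.68%, 2.22% and 0.264% of all tested genes did. All of these differences were positive, as were those of 0.335%, 1.35% and 0.146% of all tested genes, against 0.345%, 0.873% and 0.118% that were negative. The response of CCA1 had differences of -1.91, -0.69 and -0.68, none of which passed (adjusted p = 0.108, 0.562 and 0.688). The tests of both doses in ICT1-2 share the ICT1-2_NT and Col_NT libraries. When only the 4 groups of a test entered the fit, PRR7 at 200 µM missed the threshold for ICT1-2 (adjusted p = 0.0768) and ICT1-8098 (0.0553), and it did so for ICT1-2 without ICT1-2_NT replicate 1 (1.52, adjusted p = 0.126).

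ELF4 for ICT1-2 at 200 µM missed the threshold without any of 8 of the 11 libraries (adjusted p from 0.0547 to 0.217), namely Col_NT replicate 3 or 4, Col_200 replicate 4 or 5, ICT1-2_NT replicate 1 or 2 and ICT1-2_200 replicate 2 or 5. PRR5 at 400 µM missed it without Col_NT replicate 3 (0.0666), Col_400 replicate 4 (0.0608), ICT1-2_NT replicate 1 (0.0866) or 2 (0.12) or ICT1-2_400 replicate 4 (0.0665) or 5 (0.0736), and with only the groups compared in the fit (0.0709). PRR7, ELF4 and LUX at 400 µM kept their calls without each library in turn. As for the shoot photosynthesis markers, 2 of 10 passed as lower in the test of ICT1-2 at 200 µM and none at 400 µM or for ICT1-8098 by limma, and the median of the list was -2.26, -1.20 and -1.27. Whether they bear on the clock genes was not tested.

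**Figure D3:**
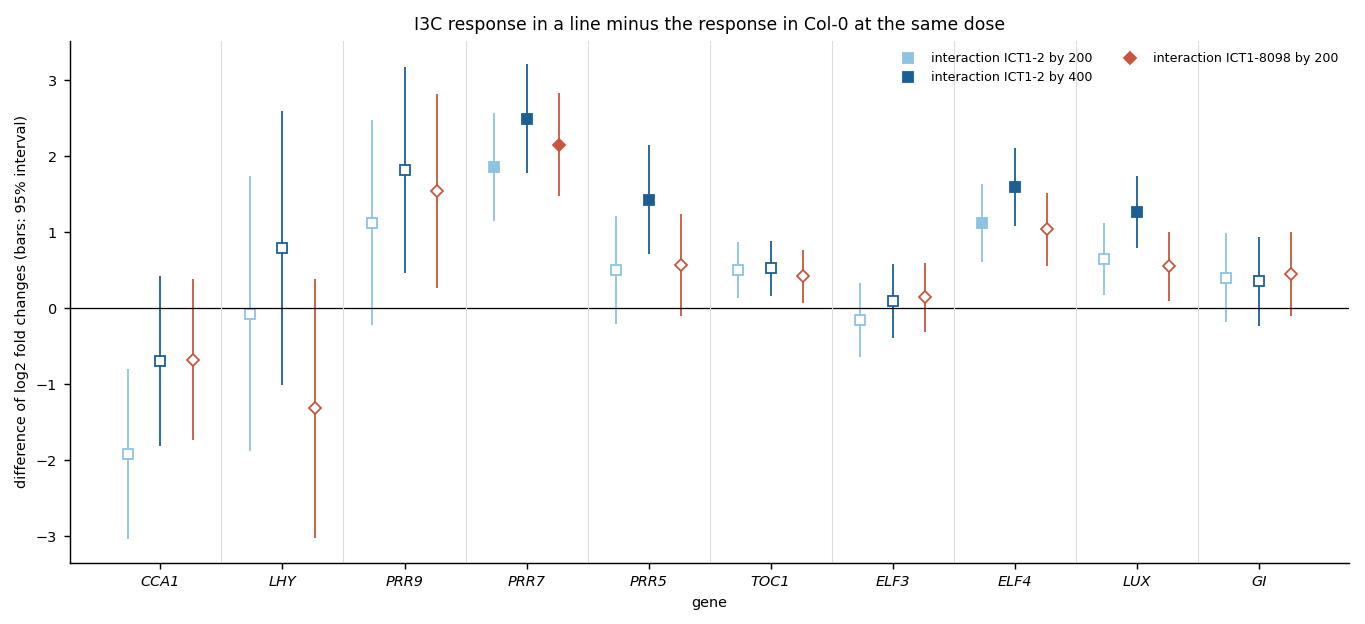
Difference between the I3C response of a line and that of Col-0 at the same dose for each clock gene, as a difference of log2 fold changes with 95% intervals, filled where the adjusted p was under 0.05. PRR7 lies between 1.85 and 2.49 in the 3 tests, and ELF4, LUX and PRR5 pass in ICT1-2 at 400 µM.

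Genes that act on or beside the core were described from 4 lists with 49 genes. Of 13 activators of clock genes, 3 rose and 2 fell at 200 µM in Col-0 and 4 rose and 2 fell at 400 µM, beside 28.9% and 35.8% of all tested genes that passed at these doses. LNK1, a coactivator that works with RVE8 and its relatives, rose from 125 to 830 normalized counts at 200 µM (2.71, SE 0.22, adjusted p = 1.4e-09) and by 2.97 at 400 µM. It rose by 2.72 and 3.58 in ICT1-2 and by 2.62 in ICT1-8098. LNK3 also rose in every I3C comparison, by 1.30 and 1.99 in Col-0, 1.30 and 1.74 in ICT1-2 and 2.38 in ICT1-8098, whereas TCP22, an activator of CCA1, fell in Col-0 (-0.89 and -0.65). In ICT1-8098_NT, LNK2 (-1.33), LNK3 (-2.39) and LNK4 (-1.88) were lower than in Col_NT, 3 of the 13 genes, and none passed as higher. Of all tested genes 12.2% passed there (6.01% higher and 6.17% lower). In ICT1-2_NT, TCP22 was lower (-0.55) and the rest did not pass, where 18.2% of all tested genes did (9.5% higher and 8.66% lower).

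Of 13 relatives and repressors of the core genes, 4 rose and 3 fell at each dose in Col-0, beside 28.9% of all tested genes that passed at 200 µM and 35.8% at 400 µM. RVE1, a close relative of CCA1 and LHY with a role in auxin synthesis, rose from 73.6 to 406 normalized counts at 200 µM (2.44, SE 0.27, adjusted p = 1.6e-07) and by 2.92 at 400 µM. BOA, the closest relative of LUX, rose by 1.82 and 1.95, and COR28, a repressor of evening genes, by 1.95 and 2.04. PRR3, the remaining pseudo-response regulator, fell from 405 normalized counts to 177 and 197, and CHE, a TCP protein that represses CCA1, fell by 0.76 and 0.78. In the lines with I3C, RVE1 (2.63 and 3.88 in ICT1-2, 2.07 in ICT1-8098) and COR28 (1.20, 2.37 and 1.70) rose and PRR3 fell (-1.02 and -1.46 in ICT1-2, -1.61 in ICT1-8098). RVE2 and RVE7, further MYB-type relatives, rose in ICT1-2 at 400 µM by 1.85 and 2.63 and passed the interaction with Col-0 there (1.48, adjusted p = 0.0013 and 1.78, adjusted p = 0.0059). Without I3C, COR27 was higher in both lines (3.13 in ICT1-2 and 3.57 in ICT1-8098, from 12.4 to 105 and 143 normalized counts), as were COR28 (1.52 and 0.95) and BOA (0.76 and 0.72). Of the 13 genes, 3 passed as higher and 2 as lower in ICT1-2_NT, where 18.2% of all tested genes passed. In ICT1-8098_NT 4 passed as higher and 0 as lower, where 12.2% of all tested genes passed. After wounding RVE2 (-0.58) and JMJ30 (-1.08), a histone demethylase also called JMJD5 that acts with the clock, fell and EFL3, a relative of ELF4, rose (1.69, adjusted p = 3.6e-05).

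Of 9 genes for protein turnover, light input and other regulation, 2 rose and 1 fell at 200 µM in Col-0 and 3 rose and 1 fell at 400 µM, near the shares of all tested genes (28.9% and 35.8%). LKP2, a relative of the F-box protein ZTL that marks TOC1 for breakdown, rose by 1.02 and 1.06 in Col-0, by 0.74 and 1.40 in ICT1-2 and by 0.55 in ICT1-8098, and TIC fell by 0.56 and 0.40 in Col-0. Of 11 tested of 14 clock output genes, 2 rose and 3 fell at 200 µM and 3 rose and 3 fell at 400 µM in Col-0, again beside 28.9% and 35.8% of all tested genes. CDF1, a repressor of the flowering gene CO that LHY, CCA1 and the PRR proteins control, rose from 48.3 to 307 normalized counts at 200 µM (2.68, SE 0.37, adjusted p = 5.1e-06) and by 2.69 at 400 µM. CDF1 was lower in both lines without I3C (-1.88 and -1.36) and rose with it by 4.41 and 4.75 in ICT1-2 and 3.51 in ICT1-8098. GRP8, an RNA-binding protein under clock control, fell in Col-0 (-0.88 and -0.99). CDF5, COL1 and CO had too few reads to be tested.

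**Figure D4:**
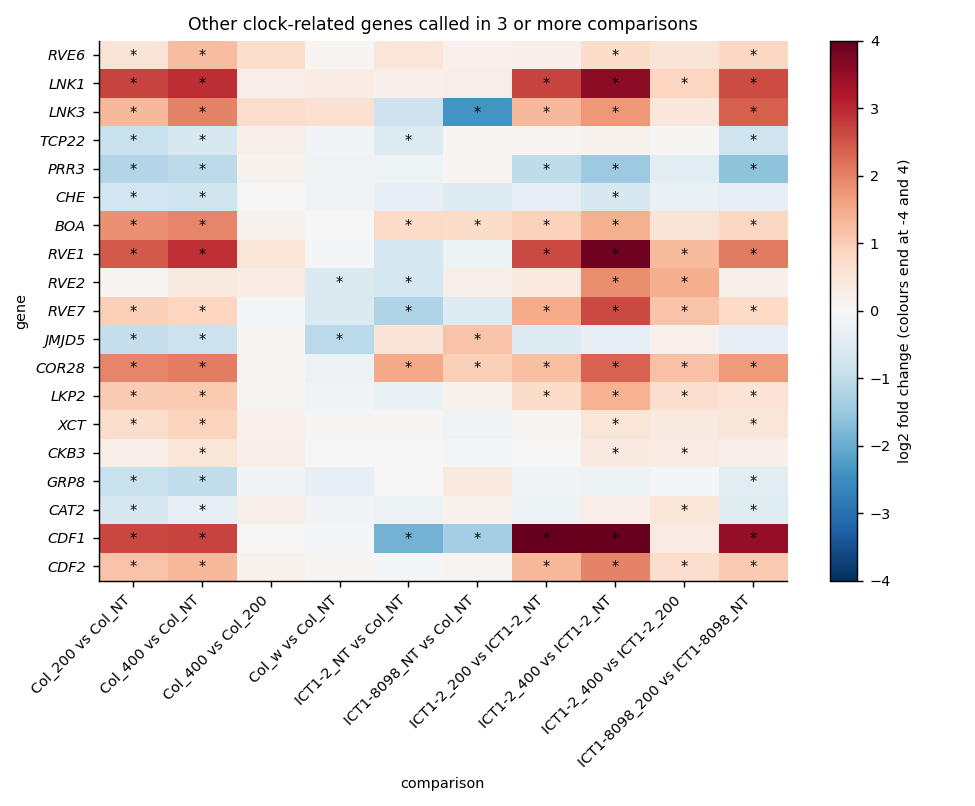
Log2 fold change (colour, ending at -4 and 4) of the 19 genes of the 4 lists that passed in 3 or more of the comparisons without interactions, with an asterisk where the adjusted p was under 0.05. LNK1, RVE1, COR28, BOA, CDF1 and CDF2 are higher in the I3C comparisons of all 3 lines, and CDF1 is lower in both lines without I3C.

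The genes whose group means followed a clock gene most closely were ranked by Pearson's r over the 9 groups among 16857 genes with a mean of at least 50 normalized counts, as a description. CCA1 was followed by B3GALT2 (r = 0.996), NAC002 (0.994) and AT1G79720 (0.994), of which NAC002, a stress-responsive transcription factor, went from 444 in Col_NT to 3544 in Col_200. PRR9 was followed by AT3G16800 (0.987), AT5G08139 (0.984) and VQ10 (0.983), and PRR7 by AT1G07660 (0.951), AT4G24200 (0.929) and BIK1 (0.922). For PRR5 they were SPHK2 (0.983), SAG21 (0.977) and PUB4 (0.973), and for TOC1 AT3G12640 (0.982), SNL3 (0.974) and AT4G04320 (0.973). ELF3 had PIP5K1 (0.981), COL9 (0.977) and AT3G16190 (0.974), ELF4 had BBX21 (0.965), AT1G53640 (0.947) and JMJ30 (0.944), and LUX had LPLAT1 (0.980), AT1G75370 (0.965) and RAT5 (0.959). The closest to LHY were ALT3 (0.931), AT4G38225 (0.879) and AT5G40700 (0.850), and to GI AT1G47395 (0.955), AT3G49550 (0.909) and AT1G15060 (0.907). All points share libraries and treatments, so these values rank patterns only. Among the clock genes themselves, PRR5 and TOC1 went most closely together over the group means (r = 0.946) and also within groups (0.747 over the 26 libraries), while CCA1 and PRR9 had 0.904 and 0.415 and CCA1 and LHY 0.427 and 0.198.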

How the data were processed

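RNA-seq of roots was deposited as 1 table for the series. Its normalized counts are reads per gene divided by a size factor per library, as deposited by the authors, and whole reads were recovered from them (100% of values within 0.1 reads). The submitters' processing notes name TopHat2 2.1.0, HTSeq 0.6.1, DESeq2 1.18.1 and TAIR10, with no roles given. The authors' log2 fold changes and adjusted p-values are, per the file headers, those of their own comparisons. They are used here only where the authors' deposited table is named. A further 21 columns of normalized counts repeated the values of the columns used and were left out. The library of ICT1-2_NT replicate 5 was not analysed here.

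Genes with at least 10 normalized counts in 3 or more libraries were kept, and their log2(normalized count + 1) entered limma 3.58.1 under R 4.3.3, in 1 fit of 26 libraries with a mean per group and a trend in the variance. Tests were two-sided, with Benjamini-Hochberg adjustment over all tested genes and a threshold of 0.05, and were tested on simulated counts. Log2 fold changes understate the change of genes with few counts. Intervals are 95% intervals of the fit. Because the table packs the libraries of a group into single cells, edgeR and DESeq2 were not run here, although edgeR's test had been planned. Total reads per library limit the precision, and the floor of 3 reads covers counting error only.

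The 10 clock genes are named throughout. From each other list up to 4 passing genes per comparison with the largest change were eligible, and for likeness the 3 genes with the highest r. CHE, and PRR3 in ICT1-2 at 400 µM, fell outside this rule and were chosen after their values were seen. Members and lists were chosen with earlier results of these data known. For 99.914% of 32548 genes the table's positions were those of RefSeq's TAIR10.1. Alternatives were other scalings, filters, pseudocounts, fits and each library left out in turn.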

Additional observations from a re-analysis of the deposited data

Results flagged for a closer look

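The I3C response of 4 clock genes differed between Col-0 and a line labelled as S30 overexpressing (in the libraries labelled ICT1-2 no S30 transcript was higher) by the test of the difference itself, limma's interaction term. For PRR7 the difference of log2 fold changes was 1.85 for ICT1-2 at 200 µM, 2.49 for ICT1-2 at 400 µM and 2.15 for ICT1-8098 at 200 µM. For ELF4 it was 1.12 for ICT1-2 at 200 µM and 1.59 at 400 µM. PRR5 and LUX differed in ICT1-2 at 400 µM, by 1.43 and 1.26. Of all tested genes, 0.68% passed for ICT1-2 at 200 µM, 2.22% for ICT1-2 at 400 µM and 0.264% for ICT1-8098 at 200 µM. As given above, the calls of ELF4 at 200 µM and of PRR5 were lost without single libraries. Those of PRR7 at 200 µM were lost with only the groups compared in the fit. The doses in ICT1-2 share their untreated libraries, and all 3 tests share Col_NT. In untreated roots PRR7 was already lower in ICT1-8098 than in Col-0, and the shoot photosynthesis markers moved in the lines with I3C as given above. The part of either in these differences was not tested.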

How the results depend on the processing

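Of 2167 recomputed log2 fold changes of single clock genes, no value that passed changed its sign, and 65 values that did not pass did so, 17 of them of LHY. Of all, 2066 stayed on their side of the threshold (1515 of them not passing either way), 74 lost a call and 27 gained one. CCA1 with I3C in every line, ELF4 in Col-0 with I3C and after wounding, PRR9 and LUX with I3C in the lines, and PRR7, ELF4 and LUX in the interaction of ICT1-2 at 400 µM kept their calls under every alternative run. Leaving out 1 library at a time gave 2 to 4 passing clock genes for Col_200, 3 to 4 for Col_400, 0 between those doses, 1 for wounding, 0 to 1 for ICT1-2_NT, 1 to 3 for ICT1-8098_NT, 4 to 5 for ICT1-2_200, 6 for ICT1-2_400, 1 to 2 between the doses in ICT1-2, and 5 to 6 for ICT1-8098_200. For the interactions it gave 0 to 2 and 3 to 4 in ICT1-2 and 1 to 2 in ICT1-8098. Where ICT1-2_NT then held 1 library, that library was taken to vary like the other groups. The counts given next are the larger changes under the other settings, and smaller changes of the counts are left out. With only the groups compared in the fit, 2 genes passed for Col_400, 1 for ICT1-8098_NT and 6 between the doses in ICT1-2. For the interactions at 200 µM in ICT1-2 and in ICT1-8098, 0 passed. Total-read scaling gave 1 for ICT1-2_NT, 1 for ICT1-8098_NT, 1 between the doses in ICT1-2 and 2 for the interaction in ICT1-8098. It also changed calls in Col_200, in Col_400 and in ICT1-2 with I3C, as given above. For ICT1-2_NT a filter of 5 CPM gave 1, and for ICT1-8098_NT no filter and a pseudocount of 5 gave 1 each. Voom on the recovered reads gave 1 for ICT1-8098_NT and 1 for the interaction of ICT1-2 at 200 µM. The authors' deposited table gave 2 for wounding and 1 for ICT1-2_NT. Voom and the authors' table were chosen after seeing the data, in place of the planned edgeR and DESeq2 alternatives, which were not run. The cause of these shifts was not tested.

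Deviations of same-numbered libraries from their group means correlated by -0.24 to 0.30 over 62 pairs (median 0.000846). Libraries with other numbers correlated by -0.42 to 0.39 (median 0.0051). Between Col_200, Col_400 and Col_w, same-numbered libraries correlated by 0.038 to 0.30, whereas replicate 1 of Col_200 and of ICT1-2_NT correlated by -0.24. Whether the replicate numbers mark batches was not tested. With the replicate number as a block, 2 genes passed for ICT1-2_NT (CCA1, 1.56 and GI, -0.60) and 1 between the doses in ICT1-2, where LUX (adjusted p = 0.0632) and ELF3 (0.0844) were lost. GI also passed for ICT1-8098_NT (-0.63, adjusted p = 0.00803), and PRR9 for Col_200 (0.052), TOC1 for ICT1-2_400 (0.0528) and PRR5 in the interaction of ICT1-2 at 400 µM (0.0534) were lost. The block changed no other call. The lowest values of LHY, PRR9 and CCA1 (5.36, 6.58 and 7.52 normalized counts) were near the floor of 3 reads, which limits what can be seen there.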
